A study of Mus musculus with 12 samples.

Results

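Transcripts of 39 genes that mark astrocytes were followed in RNA-seq libraries of the lumbar spinal cord, out of 49548 genes counted in each library. The list was written by hand from the known markers of this cell type and holds 32 homeostatic genes, which resting astrocytes express, and 7 reactive genes, which rise in many injuries: Gfap, Vim, Cd44, Serpina3n, Lcn2, C3 and Steap4. Libraries were made from 8 MFN2 mice and 4 WT mice, all 30 days old and untreated, with 1 library per mouse. MFN2 mice are hemizygous MitoCharc1 animals, labelled CMT2A and carrying Tg(Eno2-MFN2*R94Q)L51Ugfm on a B6;D2 background. This transgene is human MFN2 with the R94Q mutation under the rat Eno2 promoter, which acts mainly in neurons, and both copies of mouse Mfn2 are kept. WT mice were littermates without the transgene by the study's methods, but C57BL/6 by the labels and the study's abbreviations. The sources used here do not settle this. If the labels hold, genotype and strain background cannot be told apart in any comparison with WT. MFN2 libraries held between 19359454 and 26738930 counts and WT libraries between 19453238 and 23564568. Because whole tissue was measured, fewer astrocytes and less RNA per astrocyte cannot be told apart.

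Astrocytes take up glutamate and potassium after synaptic activity, supply neurons with metabolites, and seal vessels and the cord surface with endfeet rich in water channels. After injury or in degenerative disease they turn reactive: they make more intermediate filament, of which Gfap is the classical component, and secrete complement and acute-phase proteins. Several of the genes are shared with other cells. Vim and Cd44 are also expressed by vascular and immune cells, C3 by microglia and meningeal cells, S100b by oligodendrocytes, and Apoe by microglia.

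The libraries are numbered 41 to 47 and 72 to 76, and the meaning of the numbers was not given in the sources used here. All 4 WT libraries (44 to 47) and 3 MFN2 libraries (41 to 43) lie in the first run of numbers. The remaining 5 MFN2 libraries (72 to 76) form the second run, which holds no WT library, so that number run and genotype cannot be told apart there. In what follows, values are given in the order WT 44 to 47, MFN2 41 to 43, MFN2 72 to 76, in CPM (counts scaled to library size, with TMM factors). Ddx3y, a Y-linked gene, was counted at 89.4 CPM in MFN2 41, 66.4 CPM in MFN2 43 and 86.7 CPM in WT 44, and at 0 in the other 9 libraries. MFN2 72 to 76 therefore held no male, whereas WT held 1.

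MFN2 43 stood apart from the other 11 libraries. The summed level of 15 forebrain genes was 5121 CPM there and between 187 and 299 CPM elsewhere, each of the 15 being highest in this library. The most abundant was Camk2a, a calcium-dependent kinase of forebrain neurons, at 1920.1 CPM. Conversely, 10 caudal Hox genes, which give the cord its position along the body, summed to 57.3 CPM against 311 to 403 CPM, and all 7 motor neuron genes were lowest in it. For a spinal cord library these markers go against the label, and the other 11 libraries carried them. The astrocyte genes were affected too: 25 of the 39 were lowest in MFN2 43, where 28.7% of all genes tested were. Over the 37 genes that passed the filter described below, the median ratio of this library to the mean of the other 11 was 0.616, and over all genes tested it was 0.971. Slc1a3, Slc1a2, Thbs4 and Steap4 were instead highest there. Because of this library, counts of called genes, median fold changes and the values of the main genes in comparisons that include it are also given without it.

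All 7 astrocyte markers used to check the tissue (Gfap, Aqp4, Slc1a2, Slc1a3, Aldh1l1, Aldoc and Gja1) were detected in every library. Divided by the length of the annotated exons (RPKM), levels in WT differed widely between the genes. Sparcl1, a secreted protein that promotes synapse formation, was at 1276 ± 82.1 RPKM (mean ± SD, n = 4), followed by the lipid carrier Apoe at 669 ± 121 RPKM and Gfap at 489.9 ± 120.4 RPKM; the SDs of Apoe and Gfap overlapped. The glycolytic enzyme Aldoc at 315 ± 24.7 RPKM, S100b at 288 ± 71.9 RPKM, Atp1b2 at 283 ± 23.7 RPKM, the glutamate transporter Slc1a2 at 261 ± 9.88 RPKM and Glul at 256 ± 29.97 RPKM came next. Among these 5, neighbours in the order overlapped within their SDs, while Aldoc lay above Slc1a2 and Glul beyond them. At the other end, Cd44 was at 3.86 ± 0.452 RPKM and Lcn2 at 0.867 ± 0.930 RPKM. Thbs4 at 0.210 ± 0.0954 RPKM and Steap4 at 0.135 ± 0.0679 RPKM were the lowest, and these 2 genes did not pass the filter. Hence reactive genes were found both near the top (Gfap) and at the bottom of the order.

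**Figure D1:**
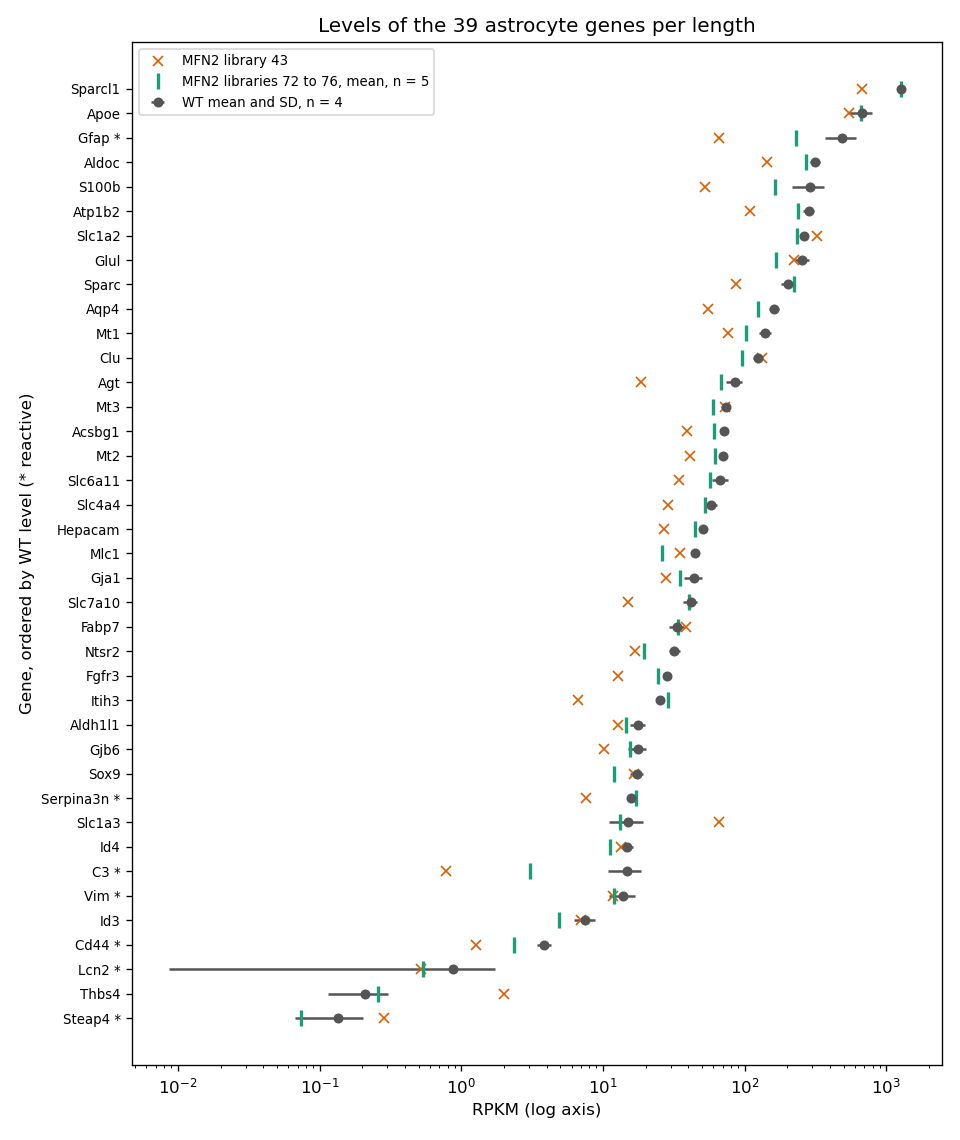
Levels of the 39 genes in RPKM (log axis), ordered by the WT mean. Grey points and bars are the WT mean and SD (n = 4), green ticks the mean of MFN2 72 to 76 (n = 5) and orange crosses MFN2 43. Most crosses lie left of the WT mean, with Slc1a3, Slc1a2, Fabp7, Clu, Thbs4 and Steap4 to its right.

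Genes above 1 CPM in at least 3 libraries were tested, 15942 in all, including 31 of the 32 homeostatic and 6 of the 7 reactive genes. Fold changes are on the log2 scale with a standard error (SE), and FDR is the Benjamini-Hochberg adjusted p of edgeR's quasi-likelihood test over all 15942 genes. The SE was derived from that test, as the absolute log2 fold change divided by the square root of the F statistic. The first question was whether the genes differ between the genotypes, with all 12 libraries included. In MFN2 versus WT, 0 of the 37 tested astrocyte genes had an FDR of 0.05 or less, against 0% of all genes tested, and DESeq2 also called 0 of the 37. At an unadjusted p under 0.05, 9 of the 37 were lower and 0 higher, while 7.57% of all genes tested were lower at that p. The median log2 fold change was -0.23 for the homeostatic and -0.54 for the reactive genes, beside 0.0038 over all genes tested. Without MFN2 43, 11 of the 37 were lower and 0 higher at that p, all 11 of them homeostatic, beside 10.4% of all genes that were lower, and the medians were -0.18 and -0.48. Levels in the MFN2 group overlapped those of WT for each of the 37 genes, whereas 2.04% of all genes tested did not overlap.

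Within this comparison the spread between MFN2 mice was wide for Gfap and C3. Gfap ranged in the 8 MFN2 libraries from 276 to 3002 CPM with a median of 896 CPM, whereas WT lay between 1549 and 2762 CPM. Its log2 fold change was -0.82 (SE 0.446, FDR 0.387). C3, the central complement component, ranged from 4.04 to 117 CPM with a median of 12.98 CPM in MFN2 and from 53.1 to 98.5 CPM in WT, a log2 fold change of -1.44 (SE 0.683, FDR 0.343). For both genes the lowest library was MFN2 43 and the highest MFN2 41, so that the extremes on either side came from the first run of numbers. Without MFN2 43 the log2 fold change was -0.67 for Gfap (FDR 0.353) and -1.27 for C3 (FDR 0.320). Without MFN2 41 it was -1.19 for Gfap (FDR 0.103) and -2.34 for C3 (FDR 0.0612), and 0 astrocyte genes were called in either fit.

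**Figure D2:**
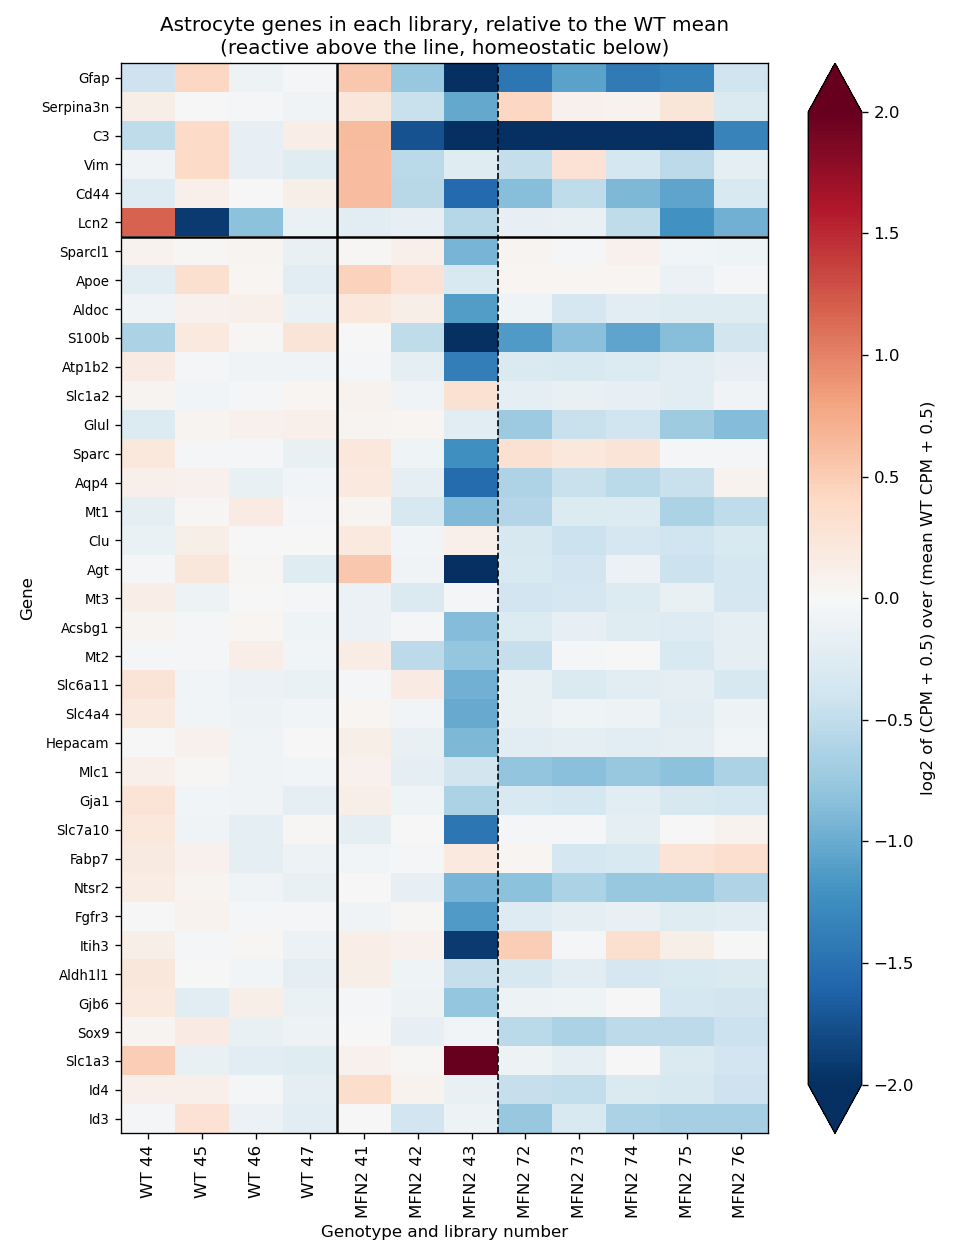
Level of the 37 tested genes in each library as log2 of (CPM + 0.5) over (mean WT CPM + 0.5), the colour scale cut at -2 and 2; reactive genes are above the horizontal line, and the dashed line parts MFN2 41 to 43 from MFN2 72 to 76. Columns 72 to 76 are blue for Mlc1, Ntsr2, Sox9, Glul and C3 alike, and column 43 is blue for most genes and dark red for Slc1a3.

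The genotypes were then compared within the first run of numbers, which holds both. In MFN2 41 to 43 versus WT, 0 of the 37 genes had an FDR of 0.05 or less, against 0.00627% of all genes tested (1 gene), and DESeq2 called 0 of the 37. At an unadjusted p under 0.05 there were also 0 of 37, against 7.2% of all genes. The median log2 fold change was -0.19 for homeostatic and -0.34 for reactive genes, beside -0.0021 over all genes. These medians depended on MFN2 43, as without it they were 0.0065 and -0.0092. They also moved with MFN2 41, to -0.35 and -0.83 without that library. Slc1a3, the glutamate and aspartate transporter, had the largest positive log2 fold change of the 37, 1.13 (SE 0.526, FDR 0.635); its level was 179, 116, 109 and 108 CPM in WT, 137, 131 and 562 CPM in MFN2 41 to 43 and 119, 112, 129, 104 and 97.9 CPM in MFN2 72 to 76. Only MFN2 43 lay above every WT library for this gene, and the other 2 of the run lay within the WT range. Without MFN2 43 its log2 fold change was 0.074, and Apoe alone of the 37 had an unadjusted p under 0.05, at 0.39 (FDR 0.863). Of all 15942 genes tested, 369 were lower and 535 higher at that p in this fit.

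MFN2 72 to 76 gave another picture. Against the same 4 WT libraries, 23 of the 37 astrocyte genes were lower at an FDR of 0.05 or less and 0 were higher, where 12.2% of all genes tested were lower and 11.4% higher. The 23 comprised 20 of the 31 homeostatic and 3 of the 6 reactive genes tested. In 18 of the 37, every library of MFN2 72 to 76 lay below every WT library, which held for 10.2% of all genes. The median log2 fold change was -0.23 for the homeostatic and -0.71 for the reactive genes, beside 0.0045 over all genes. Leaving out WT 44, the WT library with Y-linked counts, left 21 genes called, all among the 23, and with library size in place of TMM 17 of them remained. The 6 lost in that way were Agt, Aldoc, Gja1, Hepacam, Slc1a2 and Slc6a11 (FDR 0.0551 to 0.203). Of the 9 fits that left out 1 library, the call of Slc1a2 was lost in 8, that of Slc6a11 in 7, those of Agt and Aldoc in 5 each and that of Hepacam in 4, with WT 45 among the libraries for each of these genes. The split of all called genes depended on the scaling, with 48.3% of 3753 higher under TMM and 67.7% of 4169 under library size alone. MFN2 72 to 76 differ from WT in genotype and in number run at once, and by the labels in strain background. These cannot be told apart in these values, and both comparisons with WT share their controls.

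**Figure D3:**
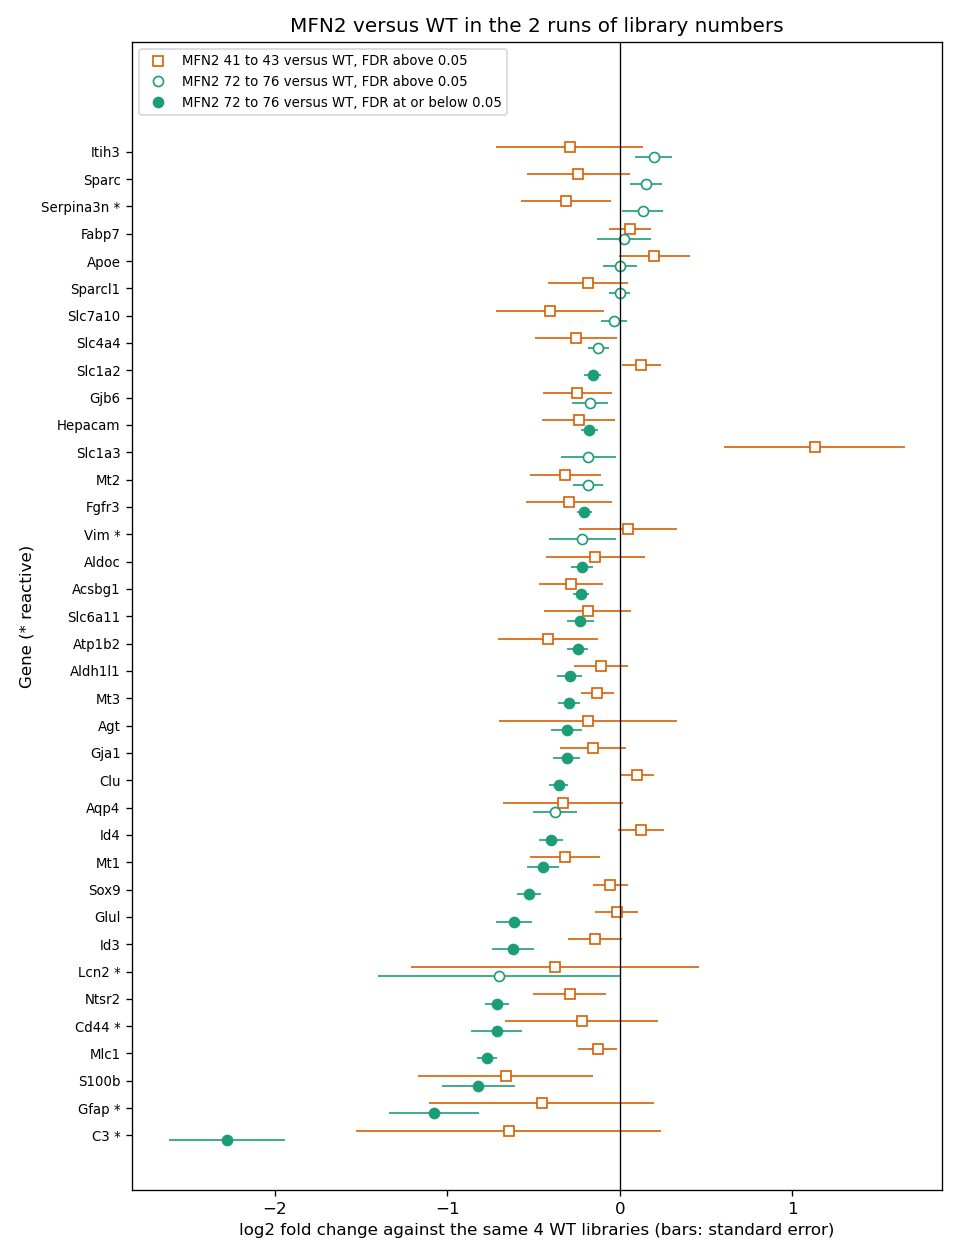
Log2 fold change (points) and SE (bars) of the 37 tested genes against the same 4 WT libraries, for MFN2 41 to 43 (orange squares) and MFN2 72 to 76 (green circles, filled at an FDR of 0.05 or less). All 23 filled circles lie left of 0, with C3 farthest at -2.28, and 0 of the orange squares are filled.

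Of the genes that encode regulators and receptors of the astrocyte lineage, Sox9, Id3, Id4 and Fgfr3 were lower and Fabp7 was not called. Sox9 (ENSMUSG00000000567, chr11:112782224-112787760, plus strand), a transcription factor that starts and keeps the astrocyte programme, was at 74.4, 80.1, 64.1 and 66.8 CPM in WT, 71.9, 63.6 and 68.5 CPM in MFN2 41 to 43 and 49.2, 45.95, 49.8, 49.2 and 52.8 CPM in MFN2 72 to 76. Every library of MFN2 72 to 76 was below every other library of the series for this gene. Its log2 fold change against WT was -0.53 (SE 0.0676, FDR 0.000466). Id3 (ENSMUSG00000007872, chr4:136143497-136145755, plus strand) and Id4 (ENSMUSG00000021379, chr13:48261228-48266026, plus strand) encode partners that block DNA binding by basic helix-loop-helix factors and respond to BMP signals. Id3 was at 13.3, 16.6, 12.3 and 11.5 CPM in WT, 13.4, 10.2 and 12.4 CPM in MFN2 41 to 43 and 7.73, 10.7, 8.49, 8.32 and 8.31 CPM in MFN2 72 to 76. Its log2 fold change was -0.62 (SE 0.122, FDR 0.00396). Id4 was at 61.3, 61.8, 55.5 and 50.6 CPM in WT, 73.5, 60.2 and 51.4 CPM in MFN2 41 to 43 and 41.4, 40.5, 46.7, 45.6 and 42.7 CPM in MFN2 72 to 76, with a log2 fold change of -0.40 (SE 0.0693, FDR 0.00221). For both Id genes MFN2 72 to 76 lay below WT without overlap, though MFN2 42 was lower than the highest of them for Id3. Fgfr3 (ENSMUSG00000054252, chr5:33721674-33737068, plus strand), the FGF receptor that marks astrocytes and their progenitors, was at 202, 213, 196 and 197 CPM in WT, 193, 205 and 92.02 CPM in MFN2 41 to 43 and 169, 178, 182, 171 and 175 CPM in MFN2 72 to 76. The difference was small and the libraries close together, giving -0.21 (SE 0.0453, FDR 0.00717). Fabp7, a fatty acid binding protein of radial glia and astrocytes, was not called at 0.024 (SE 0.155, FDR 0.931).

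Ion, water and transmitter handling is the task of a further group of these genes. Mlc1 (ENSMUSG00000035805, chr15:88955884-88979007, minus strand), a membrane protein of astrocyte endfeet that takes part in volume regulation, had the smallest FDR of the 37. It was at 134, 127, 119 and 121 CPM in WT, 132, 111 and 97.4 CPM in MFN2 41 to 43 and 72.02, 69.9, 73.5, 70.3 and 80.6 CPM in MFN2 72 to 76. Levels in MFN2 72 to 76 averaged 73.3 ± 4.31 CPM (SD, n = 5) and those in WT 125 ± 6.91 CPM (SD, n = 4), a log2 fold change of -0.77 (SE 0.0559, FDR 1.17e-05). The highest of these 5 libraries was below the lowest of the other 7. Hepacam, the adhesion protein that anchors Mlc1 at the membrane, had a log2 fold change of -0.18 (SE 0.0499, FDR 0.024). The water channel Aqp4 did not pass the threshold at -0.37 (SE 0.128, FDR 0.0582), with MFN2 76 at 1055 CPM inside the WT range of 904 to 1081 CPM. Glul (ENSMUSG00000026473, chr1:153899944-153909723, plus strand), glutamine synthetase, which turns glutamate into glutamine, was at 702, 881, 901 and 916 CPM in WT, 884, 872 and 735 CPM in MFN2 41 to 43 and 516, 628, 643, 518 and 468 CPM in MFN2 72 to 76. All 5 libraries of the second run lay below all others, and the log2 fold change was -0.61 (SE 0.106, FDR 0.00296). Slc1a2, the main glutamate transporter of the adult cord, differed less, at -0.16 (SE 0.0501, FDR 0.0394), and Slc1a3 was not called, at -0.18 (SE 0.159, FDR 0.443). The GABA transporter Slc6a11 was lower, at -0.23 (SE 0.0772, FDR 0.0479). Atp1b2 (ENSMUSG00000041329, chr11:69599736-69605942, minus strand), a subunit of the sodium pump, was at 1300.2, 1130.0, 1101 and 1097 CPM in WT, 1124, 1013 and 442 CPM in MFN2 41 to 43 and 949.7, 934, 956, 995 and 1038 CPM in MFN2 72 to 76. Its log2 fold change was -0.24 (SE 0.0596, FDR 0.012), without overlap between these 2 groups. Of the channel-forming connexins, Gja1 was lower at -0.31 (SE 0.0793, FDR 0.0157) and Gjb6 was not called at -0.17 (SE 0.105, FDR 0.253). The bicarbonate transporter Slc4a4 and the amino acid transporter Slc7a10 were not called either, at -0.12 (SE 0.0630, FDR 0.17) and -0.031 (SE 0.0753, FDR 0.802).

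Among receptors, enzymes and secreted proteins, Ntsr2 (ENSMUSG00000020591, chr12:16653382-16660227, plus strand), a neurotensin receptor, was at 111, 103, 94.7 and 90.1 CPM in WT, 101, 89.3 and 52.2 CPM in MFN2 41 to 43 and 56.4, 64.3, 58.5, 58.96 and 65.9 CPM in MFN2 72 to 76. MFN2 72 to 76 did not overlap WT, and the log2 fold change was -0.71 (SE 0.0675, FDR 7.99e-05). Clu (ENSMUSG00000022037, chr14:65968483-65981547, plus strand), the secreted chaperone clusterin, was at 386, 461, 426 and 426 CPM in WT, 488, 411 and 455 CPM in MFN2 41 to 43 and 340.2, 316, 338, 321 and 343 CPM in MFN2 72 to 76. Here the second run lay below all 7 other libraries, with a log2 fold change of -0.35 (SE 0.0552, FDR 0.00122) against WT. Acsbg1 (ENSMUSG00000032281, chr9:54604877-54661870, minus strand), which activates long fatty acids, was at 267, 254, 264 and 241 CPM in WT, 236, 249 and 141 CPM in MFN2 41 to 43 and 212, 228, 216, 213 and 226 CPM in MFN2 72 to 76, with a log2 fold change of -0.22 (SE 0.0470, FDR 0.00562). The folate enzyme Aldh1l1 was lower, at -0.29 (SE 0.0729, FDR 0.0136), Aldoc at -0.22 (SE 0.0647, FDR 0.0288) and angiotensinogen, Agt, at -0.31 (SE 0.0889, FDR 0.0276). Other secreted proteins were not called: Sparcl1 had a log2 fold change of -0.00035 (SE 0.0609), Apoe of -0.00023 (SE 0.0983), Sparc of 0.15 (SE 0.0914, FDR 0.254) and Itih3 of 0.20 (SE 0.108, FDR 0.211). The FDR of Sparcl1 and of Apoe was 0.998 and 0.999. In all, 11 of the 31 homeostatic genes tested were not called, and 28 of the 31 had a log2 fold change below 0.

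Metallothioneins bind zinc and copper and respond to metals, glucocorticoids and oxidative stress; Mt1, Mt2 and Mt3 lie side by side on chromosome 8. Mt1 (ENSMUSG00000031765, chr8:94179082-94180327, plus strand) was at 153, 176, 196 and 172 CPM in WT, 181, 139.8 and 94.3 CPM in MFN2 41 to 43 and 116, 144, 144, 112 and 123 CPM in MFN2 72 to 76. MFN2 72 to 76 lay below WT without overlap, with a log2 fold change of -0.45 (SE 0.0904, FDR 0.00555). Mt3 (ENSMUSG00000031760, chr8:94152607-94154146, plus strand), the form of the nervous system, was at 86.6, 73.2, 78.5 and 76.1 CPM in WT, 72.02, 64.1 and 77.1 CPM in MFN2 41 to 43 and 60.1, 61.9, 64.7, 70.7 and 62.4 CPM in MFN2 72 to 76, and its log2 fold change was -0.29 (SE 0.0621, FDR 0.0059). Mt2, the neighbour of Mt1, was at 40.2, 40.2, 45.4 and 40.02 CPM in WT, 46.01, 28.8 and 24.1 CPM in MFN2 41 to 43 and 30.1, 40.1, 41.7, 33.4 and 36.7 CPM in MFN2 72 to 76. It overlapped WT and was not called, at -0.19 (SE 0.0883, FDR 0.144). The difference in response between Mt1 and Mt2 was not tested. Because metal-responsive elements (MRE) before these genes bind the zinc sensor Mtf1, the 250 bases before the RefSeq start of Mt1 (chr8:94178839-94179088, plus strand) and of Mt2 (chr8:94172368-94172617, plus strand) are shown, from RefSeq on GRCm38.p6, 5′ to 3′ on the gene's strand. Capitals mark matches to TGCACNC or TGCGCNC, searched on both strands.
Mt1: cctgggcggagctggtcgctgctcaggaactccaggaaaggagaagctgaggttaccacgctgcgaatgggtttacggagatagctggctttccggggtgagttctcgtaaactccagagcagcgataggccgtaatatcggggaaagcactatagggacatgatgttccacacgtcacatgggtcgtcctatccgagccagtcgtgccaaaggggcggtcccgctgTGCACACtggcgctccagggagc
Mt2: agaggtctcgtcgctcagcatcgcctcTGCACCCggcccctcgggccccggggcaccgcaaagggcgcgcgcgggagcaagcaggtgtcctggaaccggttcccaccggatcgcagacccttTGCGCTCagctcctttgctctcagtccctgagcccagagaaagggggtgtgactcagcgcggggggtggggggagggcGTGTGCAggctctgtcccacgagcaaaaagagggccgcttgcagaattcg
In these windows Mt1 held 1 match, TGCACAC, from 23 to 17 bases before the start. Mt2 held 3: TGCACCC from 223 to 217, TGCGCTC from 128 to 122 and GTGTGCA, the reverse complement form, from 50 to 44 bases before it. Of 32851 promoter windows, each searched over the 250 bases before the start, 10.4% held TGCACNC and 12.5% TGCGCNC. Mtf1 itself was lower in MFN2 72 to 76 at -0.19 (SE 0.0609, FDR 0.038), the 1 gene called of 7 zinc transporters and metal response genes, beside 12.2% of all genes that were lower. Its call was lost in 6 of the 9 fits with 1 library left out, without any 1 of MFN2 72, 73 and 75 and WT 45 to 47. The matches are a description of the letters in these windows and not a count of the elements of each gene. Bases after the RefSeq start were not searched, and the Mt1 window already reaches into the annotated gene.

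Of the 6 reactive genes tested, C3, Gfap and Cd44 were lower in MFN2 72 to 76 and Vim, Lcn2 and Serpina3n were not called. C3 and Gfap had the largest differences of the 37. C3 (ENSMUSG00000024164, chr17:57203970-57228136, minus strand) was at 53.1, 98.5, 66.98 and 83.1 CPM in WT, 117, 22.3 and 4.04 CPM in MFN2 41 to 43 and 10.3, 13.3, 12.4, 12.7 and 29.5 CPM in MFN2 72 to 76. All 5 libraries of MFN2 72 to 76 lay below all 4 WT libraries, at 15.6 ± 7.81 CPM (SD, n = 5) against 75.4 ± 19.7 CPM (SD, n = 4), and the log2 fold change was -2.28 (SE 0.336, FDR 0.00354). MFN2 41 to 43 spanned both, with MFN2 41 above every WT library and MFN2 42 and 43 below. Since C3 had the largest fold of the list, the 250 bases before its RefSeq start (chr17:57228137-57228386, minus strand) are given from RefSeq on GRCm38.p6, 5′ to 3′ on the gene's strand, with the match to the C/EBP motif TTGCNNAA in capitals.
C3: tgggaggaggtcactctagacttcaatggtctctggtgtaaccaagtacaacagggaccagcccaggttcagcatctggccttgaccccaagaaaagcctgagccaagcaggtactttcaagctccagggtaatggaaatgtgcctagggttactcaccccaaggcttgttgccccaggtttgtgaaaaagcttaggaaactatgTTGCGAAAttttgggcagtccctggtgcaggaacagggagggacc
This match, TTGCGAAA, lies from 45 to 38 bases before the start. Both strands were searched, and 9.56% of the 32851 windows held the motif. Promoters of 34 astrocyte genes were found in RefSeq, in 39 windows. The motif was in those of Acsbg1, Aldh1l1, C3, Lcn2, Mlc1, Mt2, Slc1a2 and Steap4, 8 of the 34. A gene was counted if any of its windows held the motif, whereas the percentages are shares of windows. STAT (TTCNNNGAA) was in 7.02% of windows and in 6 of the 34, Acsbg1, Agt, Aldoc, Ntsr2, Slc1a3 and Steap4. Of the other motifs searched, TATAAA was in 5 of the 34 and 12.4% of windows, TGCGCNC in 6 and 12.5%, TGCACNC in 2 and 10.4%, AP-1 (TGANTCA) in 2 and 6.75%, SOX (AACAAT) in 0 and 9.42%, NF-kB in 0 and 1.21%, and the NFI palindrome in 0 and 0.0365%.

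Cd44 (ENSMUSG00000005087, chr2:102811141-102901665, minus strand), the hyaluronan receptor, was at 21.7, 28.1, 26.4 and 28.4 CPM in WT, 40.5, 17.6 and 8.54 CPM in MFN2 41 to 43 and 14.2, 18.2, 13.8, 12.3 and 21.1 CPM in MFN2 72 to 76. MFN2 72 to 76 did not overlap WT, with a log2 fold change of -0.71 (SE 0.148, FDR 0.00681). Gfap (ENSMUSG00000020932, chr11:102887336-102900912, minus strand) and S100b (ENSMUSG00000033208, chr10:76253853-76261159, plus strand), a calcium binding protein counted among the homeostatic genes, were taken up here after their values had been seen. Gfap was at 1549, 2762, 1926 and 2029 CPM in WT, 3002, 1223 and 276 CPM in MFN2 41 to 43 and 756, 985, 775, 806 and 1566 CPM in MFN2 72 to 76. In 4 of the 5 libraries of MFN2 72 to 76 it was below every WT library, and MFN2 76 lay just above WT 44. Its log2 fold change was -1.08 (SE 0.260, FDR 0.0219). The call was lost without WT 45 (FDR 0.0529) and without WT 47 (FDR 0.0509). S100b was at 275, 489.7, 436 and 511 CPM in WT, 427, 299.5 and 78.1 CPM in MFN2 41 to 43 and 195, 239, 206, 236 and 333 CPM in MFN2 72 to 76, a log2 fold change of -0.82 (SE 0.212, FDR 0.0263). That call was lost without any 1 of WT 45 to 47 or MFN2 72 to 75 (FDR 0.0527 to 0.0713), and with no filter on low counts (FDR 0.0688). Serpina3n, an inhibitor of serine proteases and a common marker of reactivity, was not called at 0.13 (SE 0.120, FDR 0.456). It was at 35.01, 32.3, 31.5 and 30.8 CPM in WT, 38.03, 23.8 and 15.7 CPM in MFN2 41 to 43 and 43.5, 34.4, 34.1, 38.6 and 26.3 CPM in MFN2 72 to 76, so that MFN2 72 was the highest of all libraries. Vim, the filament partner of Gfap, was at 62.7, 86.8, 59.2 and 55.6 CPM in WT, 102, 45.4 and 55.98 CPM in MFN2 41 to 43 and 47.5, 80.9, 51.6, 45.9 and 58.5 CPM in MFN2 72 to 76. Its groups overlapped, with -0.22 (SE 0.193, FDR 0.456). Lcn2, an iron-siderophore binding protein, was at 5.76, 0.235, 1.06 and 2.03 CPM in WT, 1.87, 1.99 and 1.36 CPM in MFN2 41 to 43 and 1.98, 2.01, 1.45, 0.697 and 0.918 CPM in MFN2 72 to 76. WT libraries differed widely for this gene, WT 44 being highest, and its log2 fold change was -0.70 (SE 0.706, FDR 0.515). Without WT 44 it turned to 0.35 (FDR 0.674), and without WT 45 it was -1.08 (FDR 0.198). Steap4, a metalloreductase, was counted between 0 and 19 times per library, too low for a comparison.

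**Figure D4:**
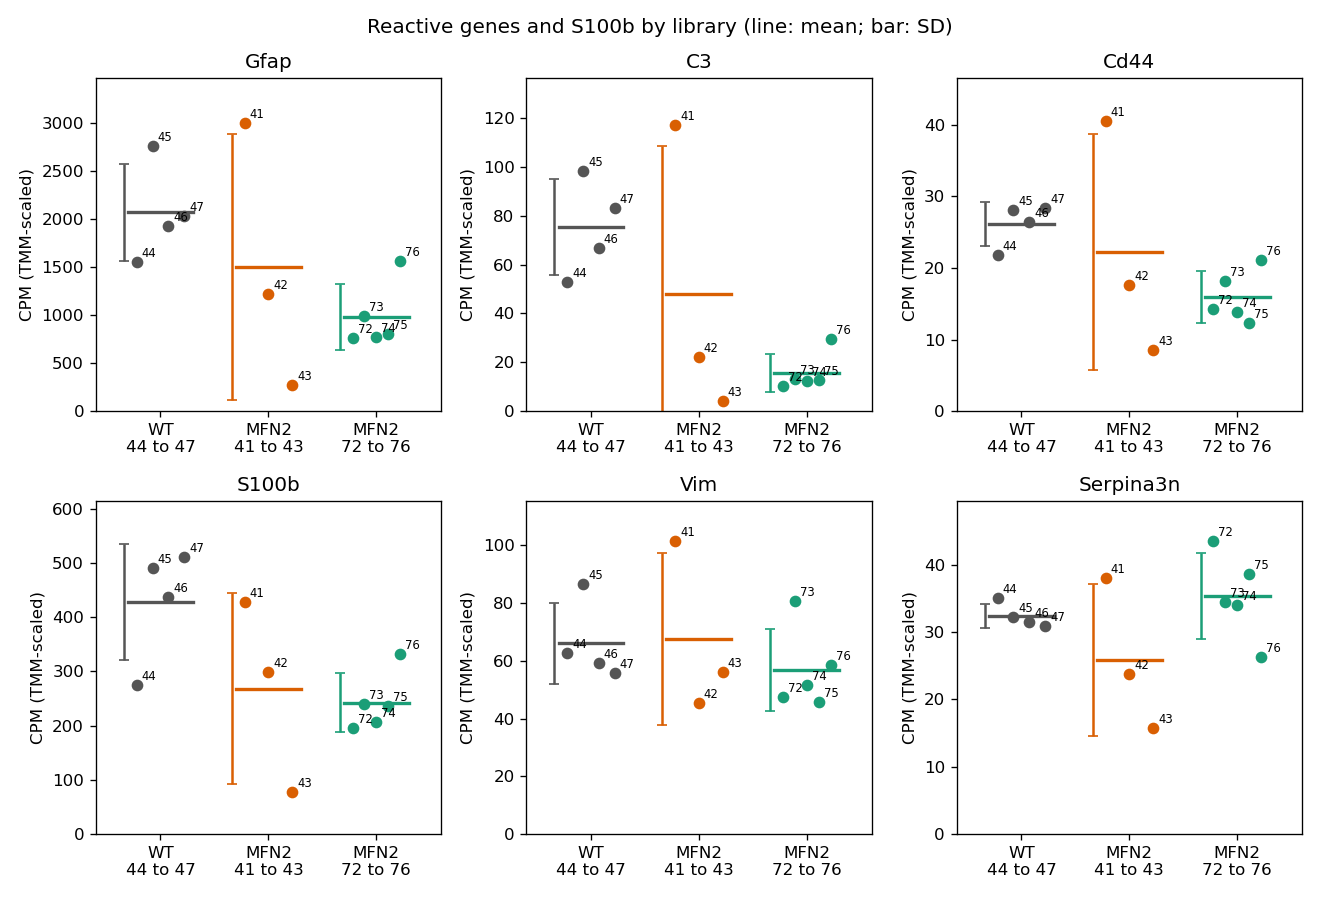
CPM in each library (points, with library numbers) for 5 reactive genes and S100b in WT, MFN2 41 to 43 and MFN2 72 to 76; horizontal lines are means and vertical bars SDs (n = 4, 3 and 5), the lower bar of C3 in MFN2 41 to 43 running below 0. For Gfap, C3 and Cd44 the highest and the lowest of all libraries are MFN2 41 and MFN2 43, and for these genes and S100b MFN2 76 is the highest of 72 to 76.

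The order of the libraries for Gfap recurred in several genes. In WT it fell from 45 to 47, 46 and 44, and in MFN2 72 to 76 from 76 to 73, 75, 74 and 72. C3 had the same order in both groups, and S100b had it in MFN2 72 to 76. So did Mbp, the basic protein of myelin, which is no astrocyte gene. It was at 8859.5, 12136, 9722 and 11569.8 CPM in WT, 13161, 8470.0 and 2754 CPM in MFN2 41 to 43 and 6701, 8799, 6938, 7271 and 11078 CPM in MFN2 72 to 76. The 8 oligodendrocyte genes examined summed to 24021, 30154, 24918 and 30809.6 CPM in WT, 33498, 21550.3 and 8321 CPM in MFN2 41 to 43 and 22908, 27955, 24083, 24494 and 34841 CPM in MFN2 72 to 76. Of these 8 genes 0 were called in MFN2 72 to 76 versus WT, beside 12.2% of all genes that were lower and 11.4% higher. Without MFN2 76, 2 of the 8 were lower, Mbp at -0.50 (FDR 0.00914) and Mobp at -0.28 (FDR 0.015), where 13.1% of all genes were lower. MFN2 76 was thus highest of its run in Gfap and in oligodendrocyte genes, and MFN2 43 lowest of all in both. The part that white matter content takes in the values of Gfap, C3 and S100b was not tested.

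To hold the genotype constant, MFN2 72 to 76 were compared with MFN2 41 to 43. These groups differ in sex as well as in number run, since MFN2 41 and 43 had Y-linked counts and MFN2 72 to 76 had none, and the part of sex in the values was not tested. Of the 37 astrocyte genes 4 were lower at an FDR of 0.05 or less and 0 higher, against 1.14% of all genes tested that were lower and 1.15% that were higher. They were Sox9 with a log2 fold change of -0.47 (SE 0.0697, FDR 0.0214), Mlc1 with -0.64 (SE 0.101, FDR 0.0259), Clu with -0.45 (SE 0.0747, FDR 0.0283) and Glul with -0.59 (SE 0.123, FDR 0.0499). Without MFN2 43 these were -0.46, -0.73, -0.44 and -0.67. The median log2 fold change was -0.13 for the homeostatic and -0.41 for the reactive genes, and -0.30 and -0.66 without MFN2 43. Without MFN2 41 both turned positive, to 0.093 and 0.24. For all 4 genes the values given above did not overlap between the runs. In all, 6 of the 37 lay lower in MFN2 72 to 76 without overlap, beside 8.59% of all genes. The others were Slc1a3 and Id4, which missed the threshold, Id4 at -0.52 (SE 0.114, FDR 0.0557). The reactive genes showed no call, with -1.63 (SE 0.823, FDR 0.259) for C3, -0.63 (SE 0.601, FDR 0.551) for Gfap and -0.49 (SE 0.422, FDR 0.503) for Cd44. Without MFN2 43 these were -2.17 (FDR 0.104), -1.11 (FDR 0.159) and -0.87 (FDR 0.144), and Id4 was called at -0.62 (FDR 0.00161). Without MFN2 41 the 3 reactive genes turned to 0.22 (FDR 0.849), 0.36 (FDR 0.693) and 0.25 (FDR 0.616). Without MFN2 43 the number of astrocyte genes called was 13, including the 4, beside 7.3% of all genes that were lower, and all genes called went from 365 to 2325. The 4 calls were less stable to other libraries: 1 remained without MFN2 41 or without MFN2 76, 3 without MFN2 42, and 0 without any 1 of MFN2 72 to 75. For Sox9, Mlc1, Clu and Glul the log2 fold change stayed negative in each of these fits. The call of Glul, next to the threshold, was also lost with filterByExpr (FDR 0.0507), upper quartile scaling (FDR 0.0636) and library size alone (FDR 0.0691). Markers of other cells differed between these runs as well. All 11 microglia genes had a log2 fold change below 0, with a median of -0.70 (-0.69 without MFN2 43). Without MFN2 43, 9 of the 11 were lower at an unadjusted p under 0.05, beside 15.2% of all genes, and 4 were called lower, beside 7.3%. With all libraries Cx3cr1 alone of the 11 was called, at -0.70 (SE 0.145, FDR 0.0498). Its call was lost in 6 of the 8 fits with 1 library left out (FDR 0.0900 to 0.134). All 7 motor neuron genes were above 0, with a median of 0.65 (0.21 without MFN2 43), and 0 were called. Without MFN2 43, 2 of the 7 were called higher, where 7.29% of all genes were. Of 8 meningeal genes 1 was called, Ptgds, lower at an FDR of 0.00928. Its call was kept in all 8 fits with 1 library left out. The part of these cells in the astrocyte values was not tested. Of all 365 called genes 50.4% were higher in MFN2 72 to 76, and 72.5% of 386 with library size alone.

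Other astrocyte genes were examined from lists that do not overlap the 39. Of 30 further astrocyte genes, all tested, 11 were lower and 0 higher in MFN2 72 to 76 versus WT, beside 12.2% and 11.4% of all genes, with a median log2 fold change of -0.13. Gpr37l1, an orphan receptor of astrocytes, was at 181, 169.5, 164 and 168 CPM in WT, 166, 152 and 94.4 CPM in MFN2 41 to 43 and 114, 118, 112, 122 and 124 CPM in MFN2 72 to 76, a log2 fold change of -0.53 (SE 0.0481, FDR 5.97e-05). Ppp1r3c, which targets a phosphatase to glycogen, was lower, at -0.68 (SE 0.0759, FDR 0.000222) and Sox2, a transcription factor of neural progenitors and glia, at -0.77 (SE 0.100, FDR 0.000551). All 3 were without overlap between these groups. In MFN2 41 to 43 versus WT 0 of the 30 were called, and their values were -0.30 for Gpr37l1, -0.27 for Ppp1r3c and -0.18 for Sox2. Without MFN2 43 they were -0.089, -0.10 and -0.099, and 0 of the 30 were called.

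Of the other genes known to rise in reactive astrocytes, few were called in MFN2 72 to 76 versus WT and none of these was higher. Among 9 tested pan-reactive genes 1 was lower, the small heat shock protein Hspb1 at -0.50 (SE 0.153, FDR 0.0327). Of 11 genes of the class named A1, which is linked to neuroinflammation, 3 were lower: Gbp2, a GTPase induced by interferon, at -1.23 (SE 0.315, FDR 0.0165), the immunoproteasome subunit Psmb8 at -0.94 (SE 0.288, FDR 0.0342) and the class I antigen H2-D1 at -0.66 (SE 0.196, FDR 0.0423). Of 7 tested genes of the class A2, linked to ischaemia, 1 was lower, Cd109 at -0.67 (SE 0.198, FDR 0.0297). The counts for lower genes, 1 of 9, 3 of 11 and 1 of 7, stand beside 12.2% of all genes. With 1 library left out they were 0 to 2, 1 to 3 and 0 to 2. Psmb8 and H2-D1 were both lost without any 1 of WT 45 and MFN2 72, 74, 75 and 76, and Hspb1 and Cd109 without any 1 of WT 45, WT 47 and MFN2 72, 74 and 75. Of 10 genes that respond to glucocorticoids 4 were higher, 0 lower and 6 not called, where 11.4% of all genes were higher. Among the 4 the clock gene Per1 was at 23.7, 26.7, 20.6 and 25.8 CPM in WT, 28.1, 25.7 and 59.5 CPM in MFN2 41 to 43 and 48.02, 54.6, 59.6, 41.2 and 43.2 CPM in MFN2 72 to 76. MFN2 72 to 76 lay above WT without overlap, by 1.03 (SE 0.118, FDR 0.000388). Zbtb16, a transcription factor, was higher by 0.69 (SE 0.105, FDR 0.00112) and the kinase Sgk1 by 1.22 (SE 0.273, FDR 0.0154). The remaining gene, Sult1a1, lost its call in 6 of the 9 fits with 1 library left out (FDR 0.0521 to 0.102). Over these 9 fits, 3 or 4 of the 10 were called higher. MFN2 41 and MFN2 43 were also above every WT library for Per1, at 28.1 and 59.5 CPM.

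Markers of other cells were counted in the same comparison, where 12.2% of all genes were lower and 11.4% higher, and their part in the values above was not tested. Of 11 microglia genes 8 were lower and 0 higher in MFN2 72 to 76 versus WT; their sum was 206, 274, 249.8 and 251 CPM in WT, 329, 199.8 and 303 CPM in MFN2 41 to 43 and 179.8, 192, 181, 154 and 199 CPM in MFN2 72 to 76. Cx3cr1, the fractalkine receptor, was lower, at -0.50 (SE 0.0769, FDR 0.00111), C1qa, a complement subunit, at -0.83 (SE 0.160, FDR 0.00443), and Tmem119 at -0.76 (SE 0.161, FDR 0.00609). Of the 11, 0 were at 0 in a library. Only 4 of the 11 were called without WT 45 or without WT 46, where C1qb, C1qc, Csf1r and P2ry12 lost their calls, and 5 without any 1 of MFN2 72, 74 and 75. Among 5 tested ependymal genes 1 was lower, Foxj1, the factor for motile cilia and the most abundant of the list, which was at 16.8, 24.7, 23.1 and 22.1 CPM in WT, 14.2, 18.1 and 6.15 CPM in MFN2 41 to 43 and 9.97, 10.1, 9.41, 9.79 and 12.4 CPM in MFN2 72 to 76. Its log2 fold change was -1.07 (SE 0.114, FDR 0.000176), and the list summed to 45.7, 38.4, 41.2 and 30.1 CPM in WT, 30.3, 35.1 and 21.3 CPM in MFN2 41 to 43 and 23.6, 27.2, 26.4, 23.5 and 23.04 CPM in MFN2 72 to 76. Of 8 meningeal genes 1 was lower, the prostaglandin synthase Ptgds, at -1.83 (SE 0.229, FDR 0.00153), while Col1a1 was the most abundant. Vascular lists gave 1 lower of 8 endothelial genes (Cldn5, -0.81 (SE 0.166, FDR 0.00693)) and 2 lower of 7 genes of pericytes and vascular muscle (Acta2, -1.06 (SE 0.237, FDR 0.00787), and Myh11, -0.76 (SE 0.208, FDR 0.0236)). Myh11 was lost without MFN2 75, WT 45 or WT 46. Of 8 neuronal genes 2 were higher (Syt1, 0.48 (SE 0.139, FDR 0.034), and Nefm, 0.36 (SE 0.113, FDR 0.0426)), of 6 genes of oligodendrocyte precursors 1 was higher (Gpr17, 0.41 (SE 0.0885, FDR 0.00694)), and of 7 motor neuron genes 0 were called. Both neuronal calls were lost without any 1 of MFN2 72, 74 and 75 and WT 45 and 46, and 3 motor neuron genes, Chat, Isl1 and Slc5a7, were called higher without WT 47, where 9.95% of all genes were. Without WT 44, when 14.9% of all genes were lower and 13.5% higher, 4 endothelial genes were lower (Cldn5, Tek, Cdh5 and Ly6c1) and Flt1 higher, and Snap25 and Tubb3 of the neuronal genes were lower. Blood genes gave 1 higher of 5 (Alas2, 1.18 (SE 0.358, FDR 0.0474), lost in 6 of the 9 fits with 1 library left out), Schwann cell genes 0 of 5 tested and infiltrating leukocytes 0 of 3 tested, with Cd3e, Cd8a, Ly6c2 and Ccr2 at 0 in at least 1 library. Of the region lists, 1 of 10 tested forebrain genes was higher (Nrgn, 0.58 (SE 0.119, FDR 0.00543)) and 1 of 10 caudal Hox genes lower (Hoxd8, -0.35 (SE 0.0718, FDR 0.00492)).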

How the data were processed

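RNA was extracted from the lumbar spinal cord of each mouse, and poly(A) libraries were sequenced as paired-end reads. Per the labels and the study's methods, the authors used STAR and GRCm38.p6 for alignment, and the deposited values are unnormalized whole-number counts for each Ensembl gene. The counting tool and its strand setting were not given in the sources used here, so that genes overlapping others (Slc1a2, Glul, Id4, Mt2, Fgfr3, Slc7a10 and Aldh1l1) are uncertain, and the kit is named differently in labels and methods. Whether reads gather at 3′ ends, which would bear on RPKM, was not tested.

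The tests were run in edgeR 4.0.16 on TMM-scaled counts (quasi-likelihood, legacy form, robust; R 4.3.3), at an FDR of 0.05 over genes above 1 CPM in at least 3 libraries. Alternatives used DESeq2 1.42.0, ComBat-seq (sva 3.50.0), other filters and scalings, and each library left out. Scripts were tested on simulated data. Exon lengths and gene positions came from GENCODE M21. Libraries of a genotype differed beyond sampling noise, with a chi-square of at least 5.34 per degree of freedom. Which mouse came from which litter was not given in the sources used here, and each p sets the difference between groups against the spread between libraries. Low genes rest on few counts at these depths. Members and lists were chosen with earlier results of these data known. By rule, values in every library are given for the 14 called genes with the smallest FDR and for the 6 reactive genes tested. Up to 3 called genes of each other list, by FDR, are named, besides genes whose calls were lost. The tests of Gfap and the values of S100b, Mt2, Slc1a3, Mbp, Gpr37l1, Per1 and Foxj1 were chosen after their values were seen, as were genes called only with a library left out.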

Additional observations from a re-analysis of the deposited data

Results flagged for a closer look

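In 78 groups of MFN2 or WT libraries (39 genes in each), the gap from the highest or lowest library to the nearest other was taken as a share of the group's whole range and compared with Dixon's critical value. It exceeded that value in 19 groups, where chance gives about 3.9. MFN2 43 accounted for 11 of these. It was the lowest MFN2 library for Slc4a4 (0.689), Atp1b2 (0.722), Fgfr3 (0.682), Acsbg1 (0.656), Hepacam (0.578), Slc7a10 (0.751), Itih3 (0.628), Sparcl1 (0.761) and Sparc (0.634), and the highest for Slc1a3 (0.917) and Thbs4 (0.858). MFN2 41 was the highest MFN2 library for Gfap (0.527), Cd44 (0.607) and C3 (0.776). In WT, library 44, that with Y-linked counts, was the highest for Slc1a3 (0.886), Slc4a4 (0.841) and Atp1b2 (0.838) and the lowest for Glul (0.837), and WT 46 was the highest for Mt2 (0.963). The 19 groups are not independent, because the same libraries recur in them.

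The difference from WT differed between the runs of library numbers for 4 genes, by the direct comparison of MFN2 72 to 76 with MFN2 41 to 43. It was lower in the second run by a log2 difference of -0.64 for Mlc1, -0.59 for Glul, -0.47 for Sox9 and -0.45 for Clu, each past an FDR of 0.05 in edgeR's quasi-likelihood test. Of the 8 fits that left out 1 library, the call was lost in 7 for Glul, 6 for Clu and 5 each for Sox9 and Mlc1, and that of Glul (FDR 0.0499) also under 3 other settings.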

How the results depend on the processing

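Between all MFN2 and WT libraries, 0 genes of all tested were called; DESeq2 called 200, ComBat-seq with genotype kept 1047, and leaving out 1 library gave 0 to 19 (19 without MFN2 43, 7 without MFN2 41, 1 without MFN2 76). Astrocyte genes called stayed at 0 in all these fits. The log2 fold change of Clu turned to 0.087 with the number run as a covariate and 0.098 with ComBat-seq, and that of Id4 to 0.11 and 0.12. For MFN2 41 to 43 versus WT, all genes called numbered 0 without a filter, 4 with DESeq2 and 0 to 2 with 1 library left out, and 0 astrocyte genes in each. With 1 library left out, log2 fold changes ran from -0.10 to 0.0050 for Sox9, -0.017 to 0.23 for Id4, -0.098 to 0.059 for Glul, -0.98 to 0.16 for Cd44 and -1.44 to 0.040 for Gfap.

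For MFN2 72 to 76 versus WT, all genes called ranged from 2355 (without WT 45) to 4517 (without WT 44), with 2487 without WT 46, and astrocyte genes from 16 (without WT 45) to 23. Calls near the threshold were also lost by Slc1a2 and S100b with no filter (FDR 0.0561 and 0.0688), by Slc1a2 and Slc6a11 with upper quartile scaling (FDR 0.0544 and 0.0723), by Slc6a11 without the robust option (FDR 0.0563), by Hspb1, H2-D1 and Mtf1 with library size alone (FDR 0.0545, 0.0646 and 0.146), by Mtf1 with upper quartile scaling (FDR 0.0504), by Csf1r and P2ry12 with library size alone (FDR 0.0644 and 0.105), by P2ry12 with upper quartile scaling, edgeR without the legacy form and no robust option (FDR 0.0575, 0.0533 and 0.0527), by H2-D1, Syt1 and Alas2 with no filter (FDR 0.114, 0.0988 and 0.111), and by Nefm and Alas2 with filterByExpr (FDR 0.0527 and 0.0537). For MFN2 72 to 76 versus MFN2 41 to 43, DESeq2 called 1775 genes and 8 astrocyte genes. Leaving out 1 library gave 26 (without MFN2 74) to 2325 genes (without MFN2 43) and 0 to 13 astrocyte genes. Log2 fold changes then ran from -2.17 to 0.22 for C3, -0.33 to 0.093 for Mt1, -0.87 to 0.25 for Cd44, -1.11 to 0.36 for Gfap and -0.59 to 0.33 for S100b, positive only without MFN2 41. They ran from -0.15 to 0.20 for Acsbg1, -0.19 to 0.28 for Fgfr3 and -0.13 to 0.40 for Atp1b2, negative only without MFN2 43. The cause was not tested. 

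No paired analysis was possible because numbers are not shared between the groups. A prior count of 0.5 in place of 2 moved the median difference in log2 CPM between genotypes from -0.47 to -0.65 for reactive genes. The depth behind low genes is small: Steap4 was counted at most 19 times in a library.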
